A study of Homo sapiens with 3 samples.

Results

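Antigen presentation by major histocompatibility complex (MHC) class I was followed through 9 of its genes, out of 33538 genes in each count matrix. The genes were taken by symbol: HLA-B, HLA-C and HLA-E, B2M, TAP1, TAP2, TAPBP, PSMB8 and PSMB9. They were measured by single-cell RNA sequencing (10x Genomics, 3′ ends) in a co-culture of 2 human colorectal carcinoma lines, Caco-2 at passage 8 and HT29 at passage 13. Both lines were placed in the upper chamber of porous Transwell inserts at 9 parts Caco-2 to 1 part HT29. The 3 Transwells gave 1 library each: control 1 and control 2 were left untreated, and the LPS-treated library received 1 ng/ml lipopolysaccharide of Escherichia coli O111:B4 in the upper chamber on day 22, for 24 h. All were harvested on day 23, and no library held either line alone. Cells were thawed before loading, and samples of low viability were depleted of dead cells. The Transwells were seeded from the same passages, so p-values measure the spread between these 3 Transwells, and the single LPS-treated library had no replicate.

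MHC class I molecules carry peptides from inside the cell to its surface, where CD8+ T cells and natural killer cells inspect them. Proteasomes cut proteins into peptides, a transporter moves the peptides into the endoplasmic reticulum, and chaperones load them onto a heavy chain paired with β2-microglobulin. Intestinal epithelial cells carry class I at their surface, and interferons are known to raise most genes of the pathway. Colorectal carcinomas can lose parts of it.

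After cell filters, 4929, 5307 and 5160 cells remained in control 1, control 2 and the LPS-treated library, with medians of 5608, 4196 and 3676 unique molecular identifiers (UMIs) per cell. Each cell was assigned to a line from a list of 24 HT29 genes and a list of 24 Caco-2 symbols (25 rows of the matrix, since IGF2 has 2), none of which was a class I gene. HT29-line cells numbered 585, 864 and 724 in the order given, and Caco-2-line cells 4209, 4182 and 4181. Lists of the study derived from single-line cultures put 99.23% of the 14745 assigned cells in the same line. Their cut-off was set midway between the medians of the 2 assigned groups, and unassigned cells are not in this share. It is therefore not an independent check of the rule. A further 10 HT29 genes kept out of the rule stood in Caco-2-line cells at 2.59 to 3.57% of their HT29-line level, and 10 such Caco-2 genes stood in HT29-line cells at 7.27 to 10.6% of their Caco-2-line level. These shares show how far genes of one line appeared in cells of the other, from free RNA, mixed droplets or low expression, and are set beside the class I values. The epithelial markers EPCAM, KRT8, KRT18 and CDH1 were present in both lines in all libraries. PTPRC, the pan-leukocyte marker, had 0 to 3 UMIs per line and library. Of other immune-cell genes, CD68 had 78, 98 and 70 UMIs in HT29-line and 647, 465 and 403 in Caco-2-line cells. FCER1G (251, 268 and 232) and CD3E (88, 55 and 74) had UMIs in Caco-2-line cells only. CD79A had 0 to 9 per line and library, and TYROBP had 0. Of fibroblast and endothelial genes, COL1A1 had 13, 14 and 17 UMIs in HT29-line and 239, 244 and 209 in Caco-2-line cells, while DCN had 0 to 1. Between 9 and 11 cell barcodes were shared by each pair of libraries before filtering.

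In GRCh38 (GENCODE 44 annotation), 8 of the 9 genes lie on chromosome 6. HLA-E spans chr6:30489509-30494194 on the plus strand, HLA-C chr6:31268749-31272130 on the minus strand and HLA-B chr6:31353872-31367067 on the minus strand. TAP2 (chr6:32821833-32838739), PSMB8 (chr6:32840717-32844679), PSMB9 (chr6:32844136-32859851) and TAP1 (chr6:32845209-32853816) sit within 38.0 kb, with PSMB9 on the plus strand and the other 3 on the minus strand. TAPBP is at chr6:33299694-33314284 on the minus strand, and B2M is on another chromosome, at chr15:44711358-44718851 on the plus strand. The annotated spans of TAP1 and PSMB9 overlap by 8.6 kb on opposite strands. Whether the counting used strand is not given in the sources used here, so a share of their UMIs may be exchanged between them. The HLA genes are alike in sequence and differ between people, and reads of both lines were aligned to 1 reference, so allele differences can lower a count and differ between the lines.

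The promoters are shown because the levels of the genes are set beside an interferon-response list in the results that follow, and because several share short motifs. RefSeq promoter windows (GRCh38.p14, from 250 bases before to 50 after a start) were matched for 8 of the 9 genes, HLA-E being the one without an entry. The interferon-stimulated response element was searched on both strands as a pair of GAAA runs with 2 bases of any kind between them. It was found in the windows of 5 of the 8 genes, B2M, PSMB8, TAP1, TAP2 and TAPBP, and in 3.57% of all 35116 windows. The windows of HLA-B, HLA-C and PSMB9 had no match to these letters. One 30-base stretch is given for each gene, on the gene's strand, with the match in capitals, at chr15:44711369-44711398 for B2M, chr6:32853813-32853842 for TAP1, chr6:32838778-32838807 for TAP2, chr6:33314073-33314102 for TAPBP and chr6:32844032-32844061 for PSMB8. Further matches overlapped the ones shown in B2M, TAP1 and TAPBP.
B2M: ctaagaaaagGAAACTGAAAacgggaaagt
TAP1: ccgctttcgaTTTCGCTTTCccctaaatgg
TAP2: ctggggaagcGAAAGCGAAAgctgcccgag
TAPBP: ggaggaaagtGAAAGTGAAAggaggaagag
PSMB8: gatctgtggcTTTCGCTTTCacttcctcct

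HLA-B and HLA-C shared a different pair of motifs. The X2 box of class I promoters, searched as TGACGC on both strands, was in the windows of HLA-B, HLA-C and TAP2 and in 9.14% of all windows. The consensus of nuclear factor kappa B (NF-κB) was matched in HLA-B, HLA-C, B2M, TAP1 and TAPBP and in 14% of all windows. The X2 stretches of HLA-B (chr6:31357268-31357297) and HLA-C (chr6:31272180-31272209) and their NF-κB stretches (chr6:31357336-31357365 and chr6:31272245-31272274) are given with the match in capitals.
HLA-B, X2: ccaggatactcgTGACGCgtccccacttcc
HLA-C, X2: cctgaatactcaTGACGCgtccccaattcc
HLA-B, NF-κB: cgcagcgttgGGGATTCCCCactcccctga
HLA-C, NF-κB: cgccgcgttgGGGATTCTCCactcccctga
CCAAT, the box bound by nuclear factor Y, was in the windows of 5 of the 8 genes (B2M, HLA-B, HLA-C, PSMB9 and TAP1) and in 34.6% of all windows, and the gamma-interferon activation site, TTCNNNGAA, in those of PSMB8 and TAP1 and in 7.66% of all windows. A match is a description of the letters and no evidence of binding in these cells.

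All 9 genes were higher in HT29-line than in Caco-2-line cells, in each of the 3 libraries, by 2.63-fold (HLA-C) to 6.32-fold (HLA-B) in the fitted comparison. The comparison used the sum of UMIs over the cells of each line in each library, 6 sums in all, and levels are given as UMIs of the gene per 1e6 UMIs of that sum (CPM), listed as control 1, control 2 and LPS-treated. By edgeR's quasi-likelihood test with the library as a block, 9 of 9 passed an adjusted p of 0.05 in this direction. Among all 14113 genes tested 72.6% passed, 34.1% higher and 38.5% lower by the same rule. The median log2 difference of the 9 genes was 1.62, against −0.08 over all genes. HT29-line and Caco-2-line levels did not overlap for any of the 9, a pattern with HT29-line higher that 36.7% of all genes showed.

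The heavy chains hold the peptide and face the T cell. HLA-B, a classical heavy chain, stood at 143, 246 and 194 CPM in HT29-line cells and at 19.2, 37.5 and 31.1 CPM in Caco-2-line cells. The lowest HT29-line library was well above the highest Caco-2-line one, and the fitted log2 difference was 2.66 ± 0.09 (SE, adjusted p = 1.55e-15). HLA-B is one of the genes the study listed for a group of HT29 cells on these control libraries, so its direction is not independent evidence. Control 1 was the lowest library for HLA-B in both lines.

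HLA-C, also a ligand of killer-cell receptors, was at 274, 388 and 308 CPM in HT29-line and 105, 128 and 112 CPM in Caco-2-line cells. It had the smallest difference of the 4 chains that make up the class I complex here, 1.40 ± 0.08 (adjusted p = 6.71e-12). HLA-E, which presents leader peptides of other class I chains to NKG2A on natural killer cells, was at 168, 216 and 191 CPM against 51.1, 63.7 and 61.6 CPM, a log2 difference of 1.62 ± 0.08 (adjusted p = 1.13e-12). The libraries of each line lay close together for HLA-E, and the lines were well apart.

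B2M, the light chain shared by all class I molecules, was the most abundant of the 9. Its level was 1980, 2344 and 2286 CPM in HT29-line and 616, 579 and 545 CPM in Caco-2-line cells, with a log2 difference of 1.84 ± 0.08 (adjusted p = 5.75e-14). The spread over libraries was small against the gap between lines: 2203 ± 196 and 580 ± 35.5 CPM (SD, n = 3).

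The transporter subunits were scarce, and the values rest on few UMIs. TAP1 was at 7.09, 13.2 and 20.8 CPM in HT29-line cells, from 25, 48 and 61 UMIs, and at 1.74, 2.38 and 2.72 CPM in Caco-2-line cells (log2 difference 2.43 ± 0.22, adjusted p = 6.76e-09). Its partner TAP2 was at 11.1, 6.88 and 14.3 CPM against 3.62, 3.62 and 3.54 CPM (1.46 ± 0.22, adjusted p = 8.38e-06). TAPBP encodes tapasin, which bridges the transporter and the empty heavy chain, and was at 113, 144 and 132 CPM against 38.3, 43.0 and 52.0 CPM (1.47 ± 0.10, adjusted p = 3.78e-11). Tapasin was thus far more abundant than either transporter subunit in both lines.

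PSMB8 and PSMB9 are catalytic subunits of the immunoproteasome, the interferon-inducible form of the proteasome. PSMB8 was at 32.6, 29.4 and 41.6 CPM in HT29-line and 11.1, 14 and 11.7 CPM in Caco-2-line cells (1.40 ± 0.14, adjusted p = 2.86e-08). PSMB9 was at 4.54, 7.71 and 16.7 CPM, from 16, 28 and 49 UMIs, against 1.74, 2.20 and 1.58 CPM (2.18 ± 0.31, adjusted p = 3.59e-06). The LPS-treated library gave the highest HT29-line value of both subunits and of TAP1 and TAP2.

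Caco-2-line cells held HLA-B at 13.5 to 16.1% of the HT29-line level, B2M at 23.9 to 31.1% and HLA-C at 33.0 to 38.1%. These shares were above the 2.59 to 3.57% at which the kept-out HT29 genes appeared in the same cells. Of the 9, PSMB9 in the LPS-treated library came nearest to them, at 9.46%.

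The UMIs of a 3′ library count transcripts whatever their length, so levels of different genes can be ordered, apart from differences in capture. In HT29-line cells the order by mean was B2M, HLA-C, HLA-B, HLA-E, TAPBP, PSMB8, TAP1, TAP2 and PSMB9. HLA-B (194 ± 51.6 CPM, SD, n = 3) and HLA-E (192 ± 23.9 CPM) did not differ beyond their spread, nor did TAP1 (13.7 ± 6.86), TAP2 (10.8 ± 3.72) and PSMB9 (9.65 ± 6.31). In Caco-2-line cells HLA-B stood below both HLA-E and TAPBP, at 29.3 ± 9.32 CPM against 58.8 ± 6.72 and 44.5 ± 6.94 CPM.

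**Figure D1:**
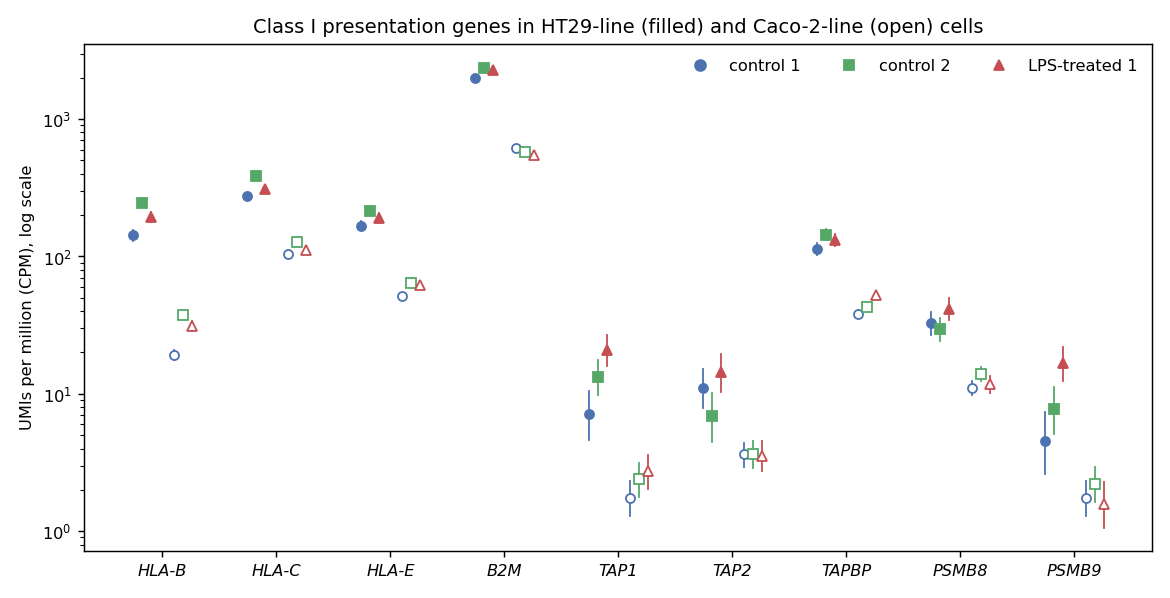
Level of each of the 9 genes (CPM, log axis) in the sums of HT29-line and Caco-2-line cells, 1 point per library. Every HT29-line point lies above every Caco-2-line point of the same gene, with the widest gap for HLA-B (143 to 246 against 19.2 to 37.5 CPM).

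The lines also differed in the mix of proteasome subunits. The share of the 3 immunoproteasome subunits among the UMIs of these and their 3 constitutive counterparts was 8.90, 10.2 and 14.7% in HT29-line and 3.07, 3.96 and 4.06% in Caco-2-line cells. PSMB5, the constitutive counterpart of PSMB8, was lower in HT29-line cells by 1.10 on the log2 scale, the opposite direction to PSMB8.

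The rest of the pathway was less uniform than the 9 genes. Among 5 tested class I and class I-like heavy chains outside the 9, 3 were higher in HT29-line cells and 1 lower. The immunoglobulin receptor FCGRT was lower, at 130, 136 and 124 CPM against 301, 262 and 275 CPM (−1.19). Of 8 genes for loading, trimming and folding in the endoplasmic reticulum, 4 were higher and 2 lower. The peptide-trimming enzymes split, with ERAP2 at a log2 difference of 1.11 and ERAP1 at −1.34, and TAPBPL, a homologue of tapasin, was at −0.75. Of the other interferon-inducible proteasome genes, POMP, an assembly factor, was higher (1.19), while PSMB10, PSME1 and PSME2 were at 0.00, −0.00 and 0.21 and did not pass. Of 5 constitutive proteasome genes 4 were higher and 1 lower, and of 6 cytosolic and endosomal peptidases 1 was higher and 2 lower.

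Among 15 transcription regulators 5 were higher and 3 lower in HT29-line cells. NLRC5, the transactivator of class I genes, was at 1.70, 1.93 and 5.79 CPM against 0.284, 0.412 and 0.327 CPM (log2 difference 2.96 ± 0.48). The interferon-regulatory factor IRF1 differed by 1.31. NFYB, a subunit of nuclear factor Y, went the other way, at −1.25. Of 11 interferon receptors and signalling genes 3 were higher and 5 lower. Of the interferon-stimulated genes, 14 of 16 tested genes of an interferon-response list of 17 (IFIT1, MX1, RSAD2 and others) were higher and 1 lower, with a median log2 difference of 2.64, and 15 of 17 further interferon-stimulated genes were higher and 1 lower (median 2.19). Of the class II chains, HLA-DRA was at 0 to 1 UMI per line and library. Of the 2 class II presentation genes that could be tested, CD74 was lower (−2.27) and HLA-DMA higher (1.87) in HT29-line cells. The ligands of the activating receptor NKG2D split 2 higher and 2 lower of 4, 1 of 4 tested LPS-sensing genes was higher and 1 lower, and of 10 tested NF-κB targets 5 were higher and 4 lower.

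Within HT29-line cells, HLA-B was spread unevenly. Depth differed between libraries, so each cell was thinned to 1500 UMIs, and no kept cell was shallower. HLA-B then had a UMI in 14.5, 20.4 and 16.2% of HT29-line cells, where an even spread of the same UMIs would give 17.9, 28.6 and 23.1%. The tenth of cells richest in HLA-B held 76.5, 69.1 and 76.3% of its UMIs. By the same measure the tenth richest in HLA-E held 57.2, 48.2 and 52.0% of the HLA-E UMIs. HLA-E, at the same mean level, had a UMI in 21.0, 28.0 and 25% of cells, close to the 22.9, 29.4 and 26.9% of an even spread. The variance beyond counting noise, as a squared coefficient of variation, was 2.46, 4.46 and 5.27 for HLA-B, 1.78, 1.23 and 1.51 for B2M and 0.882, 0.415 and 0.748 for HLA-E. HLA-B exceeded both in every library. Without thinning, HLA-B had a UMI in 29.4, 35.4 and 28.3% of HT29-line and 10.1, 13.8 and 10.9% of Caco-2-line cells.

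The HT29-line cells rich in HLA-B were also rich in other class I transcripts. Cells were split by their HLA-B UMIs after thinning, a split made after the data had been seen, into those with 0, those with 1 and those with 2 or more. The last group held 23, 65 and 41 cells. B2M, which is no paralog of HLA-B, stood at 1553, 1704 and 1674 CPM in cells with no HLA-B UMI and at 7942, 7262 and 7821 CPM in those with 2 or more, a mean log2 difference of 2.22 ± 0.13 (SD, n = 3). Cells with 1 UMI lay between, at 4032, 3874 and 4509 CPM.

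HLA-C was higher along the same split, going from 220, 292 and 244 CPM to 870, 1190 and 1122 CPM (2.07 ± 0.12). PSMB8 went from 17.3, 17.4 and 20.9 CPM to 174, 92.3 and 81.3 CPM (2.50 ± 0.69). Of the 8 genes other than HLA-B, 6 were higher in cells with 2 or more HLA-B UMIs than in cells with none in all 3 libraries, and TAP1 and TAPBP were not. How many of all genes did so was not computed. In the cells with 2 or more, TAP2 rests on 2, 1 and 2 UMIs, PSMB9 on 2, 3 and 4 and PSMB8 on 6, 9 and 5. HLA-E in control 1 rests on 7 UMIs there, at 203 CPM against 155 CPM in cells with none. Its exact Poisson 95% interval, 81.6 to 418 CPM, held the lower level. TAP1 had no UMI in the 41 such cells of the LPS-treated library. The interferon-response list also differed, at 171, 156 and 344 CPM in cells with no HLA-B UMI and 464, 277 and 1073 CPM in those with 2 or more, as did the HT29 line list, at 8511, 8437 and 8767 against 12320, 9826 and 10310 CPM. The part of either in the class I values was not tested. In Caco-2-line cells HLA-C, B2M and TAPBP were higher in the 9, 24 and 16 cells with 2 or more HLA-B UMIs in all 3 libraries. Those cells also held more HT29-list UMIs, at 1778, 1333 and 1083 CPM against 322, 403 and 350 CPM, and the part of mixed droplets was not tested.

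**Figure D2:**
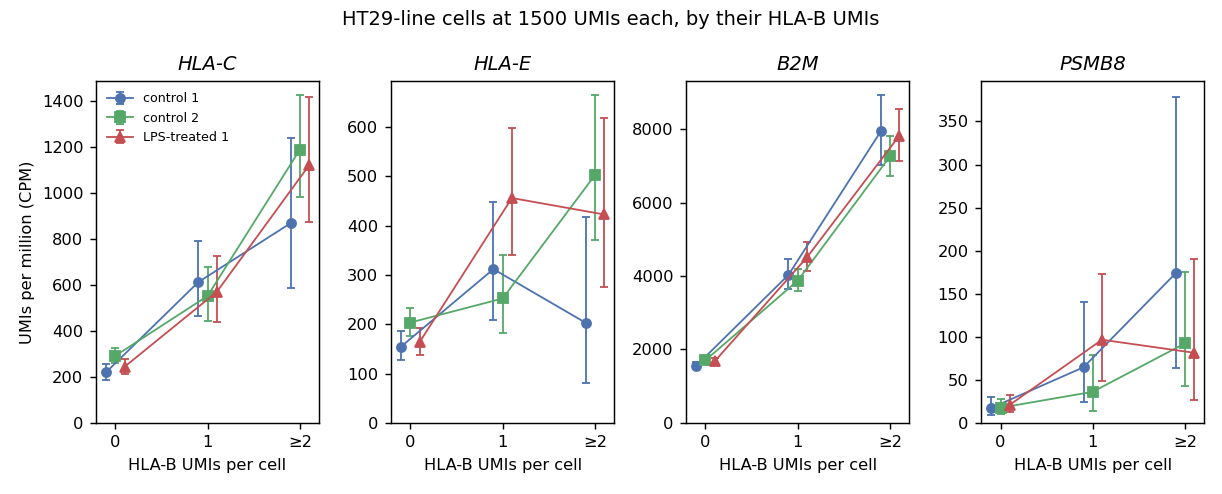
Levels of HLA-C, HLA-E, B2M and PSMB8 (CPM, linear axis) in HT29-line cells with 0, 1 and 2 or more HLA-B UMIs after thinning to 1500 UMIs per cell, 1 line per library, with exact Poisson 95% intervals that cover counting error only. B2M goes from 1553 to 1704 CPM at no HLA-B UMI to 7262 to 7942 CPM at 2 or more, and HLA-E is less regular.

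A small group of HT29-line cells carried interferon-response transcripts, and these cells were higher in most class I genes. Cells were split by their UMIs on the 17-gene interferon-response list, which holds none of the 9 genes, after thinning. Those with 2 or more made up 5.30, 3.94 and 11% of HT29-line cells (31, 34 and 80 cells) and 0.475, 0.646 and 0.837% of Caco-2-line cells. The share was highest in the LPS-treated library in both lines. In HT29-line cells 7 of the 9 genes were higher in cells with 2 or more such UMIs than in cells with none in each of the 3 libraries, the exceptions being TAP1 and TAPBP. The share of all genes with this pattern was not computed. TAP2 rests on 1, 1 and 8 UMIs in the cells with 2 or more, and PSMB8 on 4, 4 and 12. In control 1 HLA-C was at 301 CPM there, from 14 UMIs, against 262 CPM in cells with none. HLA-E was at 194 CPM, from 9 UMIs, against 168 CPM. The exact Poisson 95% intervals (165 to 505 and 88.5 to 367 CPM) held the lower levels. With 1 such UMI HLA-C was at 410, 478 and 523 CPM, and with 2 or more at 301, 745 and 442 CPM. With 3 or more such UMIs required, TAP2 and PSMB9 had 0 UMIs in control 1, so neither was higher there.

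B2M was at 3656, 4490 and 4158 CPM in the cells with 2 or more interferon-response UMIs and at 1840, 2187 and 1882 CPM in those with none (mean log2 difference 1.06 ± 0.08, SD, n = 3). HLA-B was at 366, 490 and 350 CPM against 97.9, 179 and 135 CPM (1.57 ± 0.28). PSMB8 was at 86.0, 78.4 and 100 CPM against 25.9, 19.8 and 16.3 CPM (2.06 ± 0.44).

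PSMB9 was at 43.0, 39.2 and 100 CPM against 1.44, 4.72 and 1.25 CPM, from 2, 2 and 12 UMIs in the cells with 2 or more. TAP1 had 0, 3 and 13 UMIs there, at 0, 58.8 and 108 CPM against 2.88, 11.3 and 6.25 CPM, so it was higher in control 2 and the LPS-treated library only. TAPBP did not follow, at 86.0, 137 and 125 CPM against 101, 152 and 130 CPM, lower in all 3 libraries. TAPBP is among the genes whose promoter stretches above match the letters searched for the interferon-stimulated response element, and HLA-B is among those without a match. An element that departs from these letters is not found by the search. The part of any such element in these levels was not tested. In Caco-2-line cells 3 of the 9, HLA-C, B2M and PSMB8, were higher in all 3 libraries. The PSMB8 values rest on 1, 1 and 2 UMIs in the cells with 2 or more, those of HLA-C on 7, 11 and 9 and those of B2M on 31, 44 and 52.

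**Figure D3:**
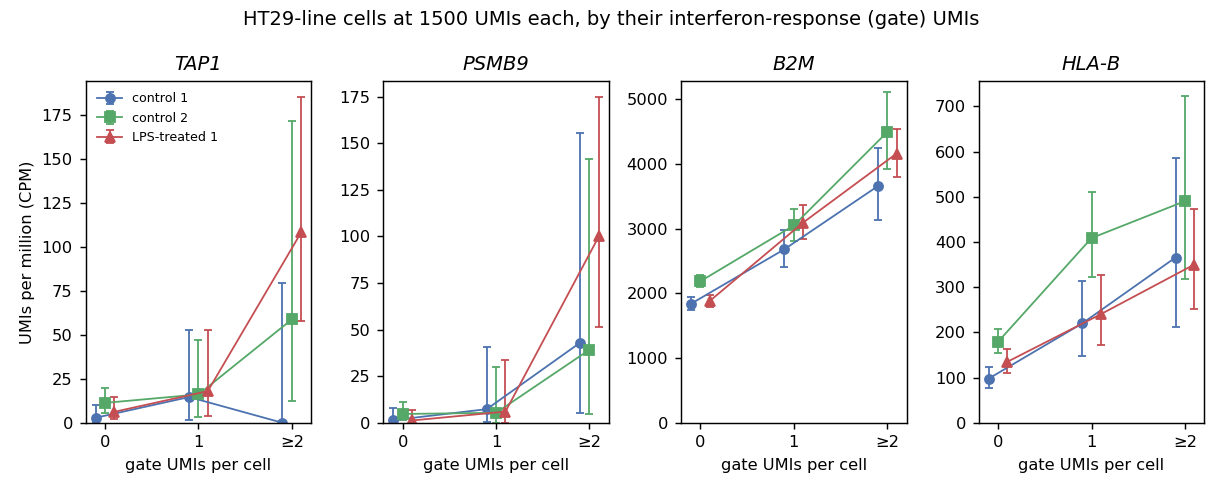
Levels of TAP1, PSMB9, B2M and HLA-B (CPM, linear axis) in HT29-line cells with 0, 1 and 2 or more UMIs on the 17-gene interferon-response list (gate UMIs), after thinning to 1500 UMIs per cell, 1 line per library, with exact Poisson 95% intervals. B2M and HLA-B are higher at 2 or more than at 0 in each library, and TAP1 has 0 CPM at 2 or more in control 1.

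None of the 9 genes passed the threshold for LPS in either line in the fit as planned, and PSMB9 passed in HT29-line cells under 3 alternatives. In HT29-line cells, 0 of 9 passed an adjusted p of 0.05 in edgeR's quasi-likelihood test of the LPS-treated library against both controls, where 0.248% of 11675 genes did. DESeq2 also called 0 of 9, and 2 were under an unadjusted p of 0.05 by edgeR. The test has 1 library against 2 and assumes that the lone library varies as the controls do.

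The 2 genes with an unadjusted p under 0.05 were PSMB9 and TAP1. PSMB9, at 4.54 and 7.71 CPM in the controls and 16.7 CPM with LPS, had a log2 difference of 1.39 ± 0.37 (95% interval 0.67 to 2.11, edgeR adjusted p = 0.0573). Its adjusted p was 0.0367 with library totals in place of TMM scaling, 0.0142 at the cell minimums of control 1 and 0.0433 without the largest 6% of cells. TAP1, at 7.09 and 13.2 CPM and then 20.8 CPM, had 0.98 ± 0.31 (0.36 to 1.59, edgeR adjusted p = 0.325). The size depended on the control: the log2 ratio to control 2 alone and to control 1 alone was 1.02 and 1.68 for PSMB9, 0.62 and 1.43 for TAP1 and 0.96 and 0.34 for TAP2. PSMB9 and TAP1, with TAP2 (0.62 ± 0.35, −0.07 to 1.32) and PSMB8 (0.37 ± 0.27, −0.15 to 0.89), were the 4 genes whose LPS-treated level lay above both controls, which 38.7% of all genes did. HLA-B, HLA-C, HLA-E, B2M and TAPBP lay between the controls, and 0 of the 9 lay below both, as 25.4% of all genes did. Their log2 differences were −0.05, −0.15, −0.05, 0.03 and −0.02, with 95% intervals reaching from −0.61 at the lowest (HLA-C) to 0.45 at the highest (TAPBP).

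The values were also computed without the interferon-response cells, whose share was highest in the LPS-treated library and whose list itself held genes that were higher with LPS. When cells with 2 or more interferon-response UMIs were left out, an alternative added after the data had been seen, the log2 difference of TAP1 went from 0.98 to −0.37 ± 0.45 and that of PSMB9 from 1.39 to 0.59 ± 0.58. TAP2 was then at 0.29 ± 0.40 and PSMB8 at 0.12 ± 0.29. Control 2 lay above control 1 for TAP1 and PSMB9, by 1.86 and 1.70 times, from 48 against 25 and 28 against 16 UMIs. The shares of interferon-response cells were 3.94% in control 2 and 5.30% in control 1. Their 95% intervals overlapped (2.74 to 5.46% and 3.63 to 7.44%). The part of these cells in the LPS values was not tested.

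Interferon-stimulated genes did pass in the same HT29-line cells in the fit as planned. Most of these calls were not made by DESeq2 and none with the gene filter left out, as the counts over all genes given further below show. Of 16 tested genes of the interferon-response list 7 were higher with LPS and 0 lower, among them IFIT1, at 20.7 and 27.0 CPM in the controls and 100.5 CPM with LPS (log2 difference 2.02 ± 0.25, adjusted p = 2.31e-12). Of 16 further interferon-stimulated genes 5 were higher, among them ISG15, at 590 and 529 CPM and then 1022 CPM (0.82 ± 0.21, adjusted p = 0.0413). Of the pathway lists and of 10 tested NF-κB targets, none had a gene past the threshold. TLR4, the LPS receptor, had 0 to 4 UMIs per line and library, so its presence was at the limit of this depth.

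In Caco-2-line cells, which were deeper in sum, 0 of 9 passed, and 0 were under an unadjusted p of 0.05 by edgeR or called by DESeq2. The threshold was passed by 0.0319% of 15692 genes. TAPBP had the lowest p of the 9, at 38.3 and 43.0 CPM in the controls and 52.0 CPM with LPS (log2 0.28 ± 0.14, −0.02 to 0.57, adjusted p = 0.801). B2M was at −0.21 ± 0.16 (−0.54 to 0.12) and HLA-B at 0.07 ± 0.25 (−0.47 to 0.61). All lists had 0 genes past the threshold in these cells. In these cells TAP1 and TAPBP lay above both controls, as 48.8% of all genes did, and B2M, TAP2 and PSMB9 below both, as 24.4% did. The difference between the lines in the response to LPS was tested as an interaction, and 0 of 9 passed where 0.184% of 15206 genes did, with 1 under an unadjusted p of 0.05 by edgeR and 0 called by DESeq2. PSMB9 had the largest value, 1.79 ± 0.54 (0.73 to 2.84, edgeR adjusted p = 0.271).

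**Figure D4:**
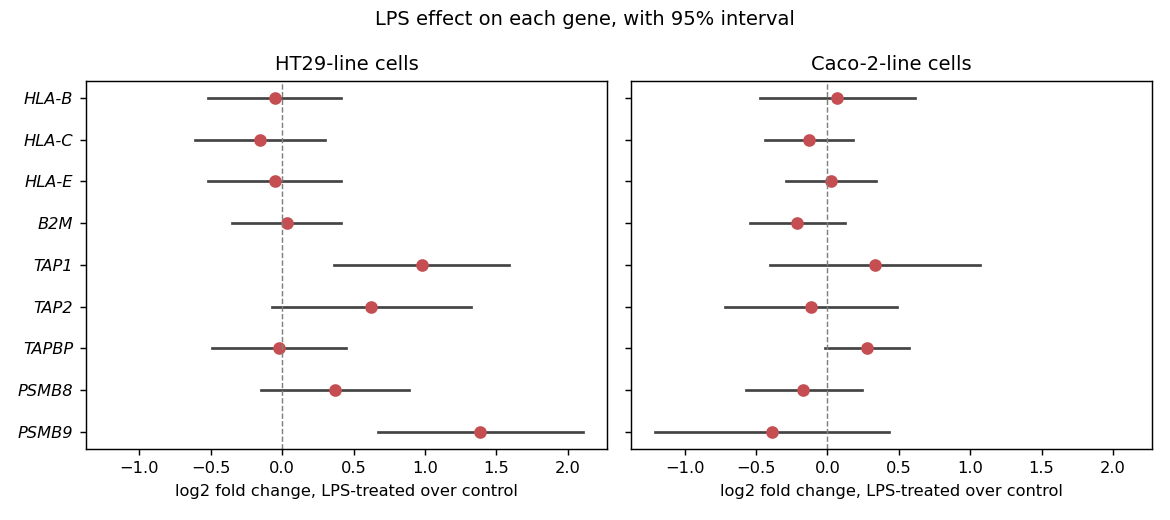
Log2 difference of the LPS-treated library from the controls for each of the 9 genes, in HT29-line and Caco-2-line cells, with 95% intervals from edgeR. PSMB9 (1.39) and TAP1 (0.98) in HT29-line cells have intervals above 0 but adjusted p of 0.0573 and 0.325.

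Along the enterocyte program of Caco-2-line cells the heavy chains parted. Cells of each library were ranked by their UMIs on 10 genes of absorptive enterocytes (APOA4, FABP2, SI and others) and divided into 3 parts of equal size, called tertiles, which are ranges of a score and not cell types. B2M was at 437, 399 and 371 CPM in the lowest tertile and 852, 832 and 760 CPM in the highest (mean log2 difference 1.02 ± 0.05, SD, n = 3). HLA-C followed, from 76.9, 88.5 and 83.7 CPM to 142, 189 and 156 CPM (0.95 ± 0.12). HLA-B went the other way, from 27.2, 39.1 and 38.1 CPM to 14.3, 35.5 and 26.8 CPM (−0.50 ± 0.37), although control 2 moved little. TAPBP (0.46 ± 0.20) and HLA-E (0.21 ± 0.11) were higher and TAP2 (−0.73 ± 0.49) lower in the highest tertile in all 3 libraries. TAP1, PSMB8 and PSMB9 differed in direction between libraries.

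The proliferation program gave nearly the mirror image. Over tertiles ranked on 12 cell-cycle genes, HLA-B (0.50 ± 0.13), PSMB8 (0.47 ± 0.05), PSMB9 (0.47 ± 0.15), TAP2 (0.39 ± 0.16) and TAP1 (0.17 ± 0.15) were higher in the most proliferative Caco-2-line cells in 3 of 3 libraries. B2M (−0.28 ± 0.03), HLA-C (−0.32), HLA-E (−0.25 ± 0.05) and TAPBP (−0.20 ± 0.15) were lower in 3 of 3. The median depth of cells rose with the proliferation tertile, and CPM is relative to all UMIs of a tertile. In HT29-line cells the lowest and the middle tertile of both programs held 0 program UMIs in all 3 libraries. Barcode order, not the program, therefore set which of these cells fell in the lowest tertile. With that limit, 2 of the 9 were higher and 7 mixed along proliferation, and 1 was lower and 8 mixed along the enterocyte program. A list of stem and fetal liver genes left 7 of 9 mixed and 2 higher in Caco-2-line cells.

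**Figure D5:**
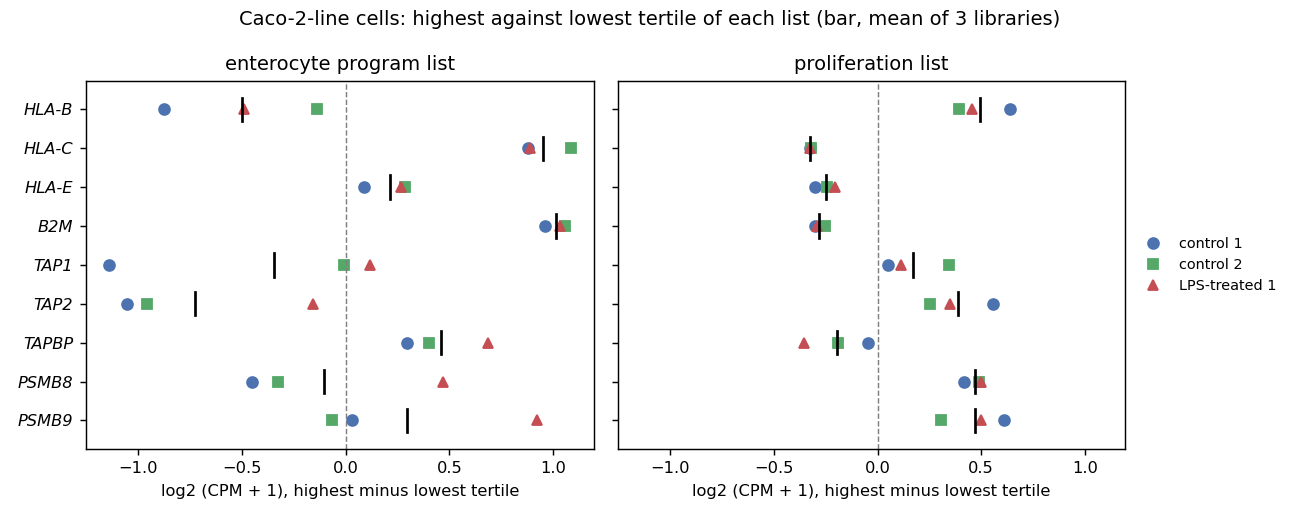
Log2 difference (of CPM + 1) between the highest and the lowest tertile of Caco-2-line cells along the enterocyte and the proliferation program for the 9 genes, with 1 point per library and a bar at their mean. B2M (1.02) and HLA-C (0.95) are higher and HLA-B (−0.50) lower at the enterocyte end, and all 3 have the opposite sign along proliferation.

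Rarer cells differed from their own line in some of the 9 genes, least steadily for the enteroendocrine list. They were taken as cells with UMIs on 3 or more genes of a marker list and compared with the other cells of that line, a comparison within lines that was added after the data had been seen. HT29-line cells with 3 or more of 6 goblet genes (MUC2, FCGBP, SPDEF, TFF3, CREB3L1 and MUC5AC) numbered 76, 97 and 85. B2M was at 1076, 1527 and 1499 CPM in them and at 2164, 2481 and 2415 CPM in other HT29-line cells (−0.80 ± 0.18), and HLA-C at 174, 288 and 221 against 295, 405 and 323 CPM (−0.60 ± 0.14). Of the 9 genes 5 were lower in all 3 libraries (HLA-B, HLA-C, B2M, TAP1 and PSMB8) and 0 higher, and the share of all genes that did so was not computed. HLA-B was at 56.9, 164 and 126 against 160, 260 and 205 CPM. Of the 489 kept cells of any line with 3 or more goblet genes, 258 were HT29-line, 118 Caco-2-line and the rest unassigned. Among all kept cells 2.74, 4.92 and 4.94% were unassigned. The part of mixed droplets in the goblet values was not tested.

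Caco-2-line cells with 3 or more of 10 enteroendocrine genes numbered 63, 68 and 15. HLA-E was higher in them in all 3 libraries, at 104, 107 and 141 CPM against 50.5, 63.2 and 61.2 CPM (0.99 ± 0.23), and 0 of the 9 were lower in all 3. With 4 or more genes required, which left 41, 38 and 5 cells, neither held: HLA-E was at 0.20 ± 0.93 and lower in 1 library, and TAP2 and PSMB8 were lower in all 3. Caco-2-line cells with 3 or more of 9 genes typical of placenta (XAGE2, ERVH48-1, GATA2 and others) numbered 24, 37 and 10. In them HLA-B (0, 30.7 and 16.4 against 19.3, 37.6 and 31.2 CPM), HLA-C (40.1, 53.7 and 98.2 against 105, 129 and 112 CPM) and B2M (392, 422 and 344 against 618, 581 and 546 CPM) were lower in all 3 libraries, and TAPBP was higher in all 3 (0.49 ± 0.41), but in only 1 of 3 with 4 or more genes required. The numbers of cells are small, and marker UMIs are found more readily in deep cells.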

How the data were processed

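Per the labels and the study's methods, the authors prepared 10x Genomics 3′ libraries and made UMI counts with Cell Ranger on GRCh38. The deposited matrices hold whole-number counts per gene and cell barcode, not normalized, and name software version 3.1.0. Cells were kept at the minimums of UMIs and genes that the study gives for its controls (for control 2, 1500 UMIs and 700 genes, also used for the LPS-treated library, for which none is stated) and at most 20% mitochondrial UMIs. This left 4929, 5307 and 5160 of 5811, 6495 and 6838 barcodes.

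A cell's line was set from the share of HT29-list UMIs among the UMIs on both line lists: HT29-line at 0.7 or above, Caco-2-line at 0.3 or below, with at least 10 UMIs on the lists. The 135, 261 and 255 remaining cells were left out of line sums, which also removes droplets holding both lines in near-equal parts but not unbalanced ones. No doublet caller was run, so doublets within a line remained. UMIs were summed per line and library. Genes were filtered with filterByExpr, normalized by TMM and tested with edgeR 4.0.16 (R 4.3.3) by the quasi-likelihood test with Benjamini-Hochberg adjustment over all genes tested (threshold 0.05). The line was tested with the library as a block, which pairs the lines because both come from 1 Transwell. LPS was tested per line and as an interaction on the 6 sums. DESeq2 1.42.0 was an alternative. Other alternatives were another scaling, no gene filter, other line cut-offs and lists, other cell minimums, thinning, the largest cells left out, and each library left out. Leaving out cells with 2 or more interferon-response UMIs was added after the data were seen, as were the HLA-B split and the rare cells within lines. Values along programs, by interferon-response UMIs and in rare cells have no test, since cells are not replicates. For these and for the HLA-B split, the share of all genes with 1 direction in all 3 libraries was not computed. Mean log2 differences there are means of log2 ratios of CPM (with 1 CPM added to both) over the 3 libraries. Each fit was run on simulated counts with the same dispersion for every gene. Genes differed in spread between the real controls, so the simulation does not show how often the fits miss or wrongly call genes here. The precision of levels is limited by counting: PSMB9 had 16 to 49 UMIs per HT29-line sum.

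The 9 genes and all lists were chosen with earlier results of these data known. All 9 are named in every comparison. Of the other lists, counts past the threshold are given, with up to 4 genes named per list. The planned order was those of the highest mean CPM among genes past the threshold first, and it was not kept in every list. In the loading, trimming and folding list ERAP2, ERAP1 and TAPBPL are named, and more abundant genes are not. NLRC5, NFYB, ERAP1, TAPBPL, PSMB5, TLR4 and HLA-DRA were named after their values were seen. Some genes of the lists are not reported here. Promoter sequences are from RefSeq (GRCh38.p14). Python 3.11.15, numpy 2.4.6, pandas 2.3.3, scipy 1.17.1 and matplotlib 3.10.9 were used.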

Additional observations from a re-analysis of the deposited data

Results flagged for a closer look

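For 2 genes the LPS-treated library lay above both controls in HT29-line cells and below both in Caco-2-line cells. PSMB9 in HT29-line cells was 2.73 times its control mean with LPS, and in Caco-2-line cells it was at 1.58 CPM against 1.74 and 2.20 CPM. TAP2 in HT29-line cells was 1.6 times its control mean, and in Caco-2-line cells it was at 3.54 CPM against 3.62 and 3.62 CPM. The interaction did not pass for either (edgeR adjusted p = 0.271 for PSMB9 and 1.0 for TAP2). The PSMB9 values rest on 16, 28 and 49 UMIs in HT29-line and 49, 48 and 29 UMIs in Caco-2-line cells.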

How the results depend on the processing

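The line difference kept its direction and its call for all 9 genes under every alternative run, with the lowest log2 value, 1.17, for PSMB8 without interferon-response cells. Without the replicate block, that is without the library as a block, 9 of 9 were also called. No paired analysis was possible for LPS because the groups share only 1 replicate number. In HT29-line cells 1 gene, PSMB9, passed for LPS in place of 0 with library totals in place of TMM (edgeR adjusted p = 0.0367), at the minimums of control 1 (0.0142) and without the largest 6% of cells (0.0433).

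Several LPS values changed sign, most of them near 0, but TAP1 from 0.977 and its interaction from 0.663. Leaving out control 1 or control 2, the values in HT29-line cells ran from −0.341 to 0.44 for HLA-B, −0.332 to 0.168 for HLA-C, −0.172 to 0.188 for HLA-E, −0.135 to 0.211 for TAPBP and −0.036 to 0.208 for B2M, and in Caco-2-line cells from −0.262 to 0.671 for HLA-B, −0.189 to 0.101 for HLA-C, −0.048 to 0.263 for HLA-E and −0.236 to 0.076 for PSMB8, in each pair with one sign per control left out. In HT29-line cells with the study's line lists, the values were HLA-B 0.036, HLA-E 0.02 and TAPBP 0.026. TAPBP was also at 0.028 with library totals, 0.0 with no minimums and 0.007 without the largest cells, and B2M at −0.044 with stricter line cut-offs, −0.01 at the minimums of control 1 and −0.063 without interferon-response cells, where TAP1 was at −0.371 and its interaction at −0.509. The thinned HLA-C interaction was 0.075. In Caco-2-line cells thinned HLA-B was at −0.002. The cause was not tested.

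Counts over all genes depended on the settings. HT29-line LPS calls were 29, against 3 by DESeq2, 0 with no gene filter, 41 at the minimums of control 1 and 7 without interferon-response cells. Caco-2-line calls were 5, against 4 by DESeq2 and 54 with no gene filter, and interaction calls 28, against 2 by DESeq2. Depth limits TAP1, TAP2 and PSMB9 most.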

Other observations

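The genes most like 3 of the 9 were taken over 18 sums (2 lines, 3 libraries and tertiles of the enterocyte program) among 5664 genes with a mean of at least 20 CPM, by Pearson's r of log2(CPM + 1). The sums share libraries and 2 lines, so r is a description and mainly reflects the difference between lines. Among HT29-line cells, the lowest and middle tertiles held no UMIs of the program and were parted by barcode order. HLA-B was most like ULK1 (0.983), BBX (0.982) and LPCAT1 (0.980). B2M was most like C19orf33 (0.993), the interferon-inducible gene IFI27 (0.992) and ATP1B1 (0.992), and TAP1 was most like KMT5C (0.969), PRMT2 (0.966) and ZBTB7A (0.965). Within the 9, HLA-B was closest to HLA-E (0.973) and B2M to HLA-C (0.977).

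When placental genes were required at 4 or more in place of 3, 56 Caco-2-line cells remained over the 3 libraries, with 0 HLA-B UMIs (exact Poisson upper limit 8.35 CPM, counting error only) and HLA-C at 24.9 CPM.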
